A study of Mus musculus with 18 samples.

Results

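The genes of this account are those whose lung RNA moved the same way after thoracic irradiation in each of 3 inbred mouse strains. They were found by setting all 9 arrays of irradiated mice against all 9 arrays of control mice with strain as a block, over 12405 genes that passed a filter on dim probe sets. A gene was called shared where its adjusted p in this fit was below 0.05 and its log2 fold change had the same sign in each strain. By that rule 3648 genes (29.4% of those tested) were shared, of which 2128 (17.2%) were higher and 1520 (12.3%) lower in irradiated lungs. A stricter class of 323 genes (2.6%) also passed the threshold in each strain by itself, 203 of them (1.64%) higher and 120 (0.967%) lower.

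Lung RNA came from mice given 18 Gy to the whole thorax at 8 weeks of age and from untreated mice of the strains A/J, C57BL6/J and C3H/HeJ, with 3 arrays in each of the 6 groups. Irradiated mice were killed when moribund, a state defined in the labels by over 20% weight loss with distress, at 30 to 32 weeks of age in A/J, 28 to 30 in C57BL6/J and 20 to 22 in C3H/HeJ. That is 22 to 24, 20 to 22 and 12 to 14 weeks after exposure. Controls of every strain were 15 to 26 weeks old. Irradiated A/J and C57BL6/J mice were thus older than any control, and in all strains irradiation, moribund state and time since exposure cannot be told apart. A lead shield reduced the beam to 3% outside the thorax, so tissue beyond the lung was not free of dose. Each array measured the right lung of a mouse, and the labels do not say whether the 3 control samples of a strain came from separate animals; if they did not, the p-values measure technical spread there.

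Ionizing radiation breaks DNA, and the transcription factor p53 then switches on genes that stop the cell cycle, repair the damage or kill the cell. In the lung the injury appears late: weeks to months after exposure, capillary endothelium is lost, macrophages fill the air spaces, and collagen may be laid down between them. C57BL6/J is known for a fibrosing form of this disease, and A/J and C3H/HeJ for an inflammation of the air sacs called alveolitis. The tissue label was borne out by the arrays, in that all 7 lung markers (Sftpc, Sftpb, Scgb1a1, Ager, Pecam1, Cdh5 and Foxj1) were above the filter in every group. Their summed signal ranged from 28860 to 30446 in irradiated and 29500 to 30732 in control A/J lungs. The sums ranged from 27481 to 28992 in irradiated and 29445 to 29849 in control C57BL6/J lungs, and from 27478 to 27895 in irradiated and 29078 to 30049 in control C3H/HeJ lungs.

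Some arrays stood apart in ways the groups do not explain. Squamous keratins of the kind made by oesophagus, Krt4, Krt13, Krt5 and Krt78, and the skeletal muscle genes Acta1, Ckm, Myh1 and Mylpf were all above the filter, and both sets were high in 1 irradiated A/J array and 2 C57BL6/J control arrays. The 4 keratins summed to 99.5 to 3270 in irradiated and 40.8 to 60.9 in control A/J lungs, to 25.1 to 60.6 in irradiated and 73.4 to 5279 in control C57BL6/J lungs, and to 51.9 to 155 in irradiated and 47.1 to 111 in control C3H/HeJ lungs. Actin probe sets at the 5′ end, set over those at the 3′ end as a sign of RNA integrity, gave ratios of 0.413, 0.551 and 0.528 in irradiated A/J lungs, below the 0.677 to 0.766 of all other arrays. Across strains the difference of this ratio between irradiated and control arrays had p = 0.085 in an exact two-sided permutation within strains. The same ratio for Gapdh was 0.294, 0.876 and 1.03 in irradiated A/J lungs, against 1.29, 1.30 and 1.14 in A/J controls. In the other 12 arrays it was 1.06 to 1.26. Averaged over strains it was lower in irradiated arrays by 0.177, with an exact p of 0.044 in that test. This difference lay in A/J, since the means were 1.17 in irradiated and 1.20 in control C57BL6/J lungs, and 1.16 in both C3H/HeJ groups. The part of RNA integrity in the changes of A/J lungs was not tested. The same exact permutation test gave p = 0.0245 for the trimmed mean of the deposited signals. It was higher in irradiated arrays by 29.1 and is what the normalization removes. Its group means in irradiated and control lungs were 128 and 84.1 in A/J, 81.0 and 77.3 in C57BL6/J, and 104 and 64.1 in C3H/HeJ. The third irradiated C3H/HeJ array lay 0.478 of the way to A/J at 25 probe sets that separate these strains, while the other 2 lay at 0.0495 and 0.0309. All C57BL6/J arrays lay between 0.758 and 0.913 on this scale, so a shift along it is not particular to A/J. The strain label of that C3H/HeJ array was thus not borne out at these probe sets. Whether the sample holds RNA of another strain was not tested. Without it 1914 genes were shared and higher and 1388 lower. Counts over all genes are given with and without the keratin-high arrays and the third irradiated C3H/HeJ array. Values of most lists and named genes, and all marker sums, are given with these arrays included only.

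Targets of p53 were more often higher than lower in irradiated lungs. Of 31 measured p53 targets, 18 were shared and higher and 4 shared and lower, against 17.2% and 12.3% of all genes tested. The list's median log2 fold change was 0.34, against 0.02 for all genes, and it was nearly the same in each strain, 0.36 in A/J, 0.34 in C57BL6/J and 0.33 in C3H/HeJ. Each strain by itself called 12 members higher, against 15.1% of all genes in A/J, 3.01% in C57BL6/J and 12.9% in C3H/HeJ. A/J called 3 lower, C57BL6/J 1 and C3H/HeJ 5, against 8.91%, 2.36% and 10.6% of all genes. In every strain 9 were called higher, against 1.64% of all genes: Cdkn1a, Psrc1, Zmat3, Eda2r, Phlda3, Ccng1, Aen, Trp53inp1 and Rps27l.

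Cdkn1a encodes p21, the inhibitor of cyclin-dependent kinases through which p53 halts division. Its normalized values, log2(signal + 7), were 10.41, 9.54 and 9.29 in irradiated A/J lungs, against 7.92, 8.02 and 8.00 in A/J controls. They were 10.35, 10.29 and 10.18 in irradiated C57BL6/J lungs, against 7.39, 8.46 and 7.25 in their controls. C3H/HeJ lungs read 9.86, 9.89 and 9.61 after irradiation, against 7.41, 7.36 and 7.69 in controls. All 9 irradiated arrays lay above all 9 controls, by a log2 fold change of 2.21 ± 0.17 (standard error), or 4.63-fold, with an adjusted p of 2.08e-07 in limma's strain-blocked fit. A second probe set for the gene gave 1.89 ± 0.19.

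Zmat3 encodes an RNA-binding protein and p53 target that restrains growth, and among the named genes it had the smallest adjusted p of the strain-blocked fit, 2.91e-09. Irradiated A/J lungs had 8.17, 8.01 and 8.06, against 6.41, 6.68 and 6.39 in A/J controls. Irradiated C57BL6/J lungs had 7.90, 7.96 and 7.87, against 6.66, 6.25 and 6.63 in their controls. Irradiated C3H/HeJ lungs had 8.23, 8.16 and 8.09, against 6.85, 6.86 and 6.48 in their controls. The 9 irradiated values span a narrow band that does not reach the controls, and the effect was of like size in the strains: 1.59 ± 0.13, 1.40 ± 0.13 and 1.43 ± 0.13 in A/J, C57BL6/J and C3H/HeJ.

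Psrc1, a microtubule-associated protein, rose by 2.46, 1.65 and 2.23 on the log2 scale in A/J, C57BL6/J and C3H/HeJ, and Eda2r, a death receptor for ectodysplasin A2, by 1.20, 0.94 and 1.72. The other members called in every strain, named after their values were seen, had blocked log2 fold changes of 1.01 ± 0.10 (Phlda3, an inhibitor of Akt), 0.81 ± 0.08 (Ccng1, cyclin G1), 0.74 ± 0.08 (Aen, a nuclease of apoptosis), 0.72 ± 0.09 (Trp53inp1, a stress-induced p53 cofactor) and 0.52 ± 0.07 (Rps27l, a ribosomal protein paralog). Pltp, a phospholipid transfer protein on the same list, went the other way, with values of 11.08, 10.89 and 10.94 in irradiated and 11.93, 12.12 and 12.07 in control A/J lungs and a blocked log2 fold change of -0.95 ± 0.09. Its arrays did not overlap in any strain. The other lower members were Dcxr, Rrm2b and Xpc. Ddias, a damage-induced suppressor of apoptosis that is on none of the lists and was chosen after its values were seen, rose by 1.33, 1.32 and 1.90 in the 3 strains.

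Promoter sequence is shown for the targets called in every strain that held an exact match to the p53 decamer consensus, which reads the same on both strands, before the gene's outermost annotated start. RefSeq windows (GRCm38.p6) of 250 bases before an annotated start were found for 16 of the 18 shared higher targets, and 8 of these genes held a match. Of all 32851 windows 7.13% held one, and of the 27025 genes with a window 8.2%. Some windows belong to a start inside the gene: the match of Aen lies past the gene's outermost start and those of Rps27l lie within the gene's annotated span. Before the outermost start 5 of the 16 targets held a match, against 6.22% of genes. Of the 9 called in every strain 7 had a window, and 2 of those held a match there. These follow, 5′ to 3′ on the gene's strand up to that start, with the matches in capitals.
Cdkn1a, chr17:29090729-29090978, plus strand: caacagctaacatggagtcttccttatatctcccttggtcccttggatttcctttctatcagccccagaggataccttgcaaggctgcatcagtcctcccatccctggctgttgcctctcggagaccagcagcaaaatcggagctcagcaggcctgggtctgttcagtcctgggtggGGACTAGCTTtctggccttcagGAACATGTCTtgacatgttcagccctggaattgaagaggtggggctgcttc
Ccng1, chr11:40755310-40755536, minus strand: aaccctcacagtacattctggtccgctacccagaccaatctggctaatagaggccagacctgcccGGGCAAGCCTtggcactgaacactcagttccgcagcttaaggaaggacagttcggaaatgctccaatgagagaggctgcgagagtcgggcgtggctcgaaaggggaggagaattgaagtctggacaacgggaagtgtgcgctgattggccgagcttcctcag
The matches began 73 and 51 bases before the outermost start in Cdkn1a, and in Ccng1 185 bases before the start that its window belongs to. Another Cdkn1a window, before a start inside the gene, held no match. A match describes the letters of the window and not binding, and a window without one says nothing about p53.

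**Figure D1:**
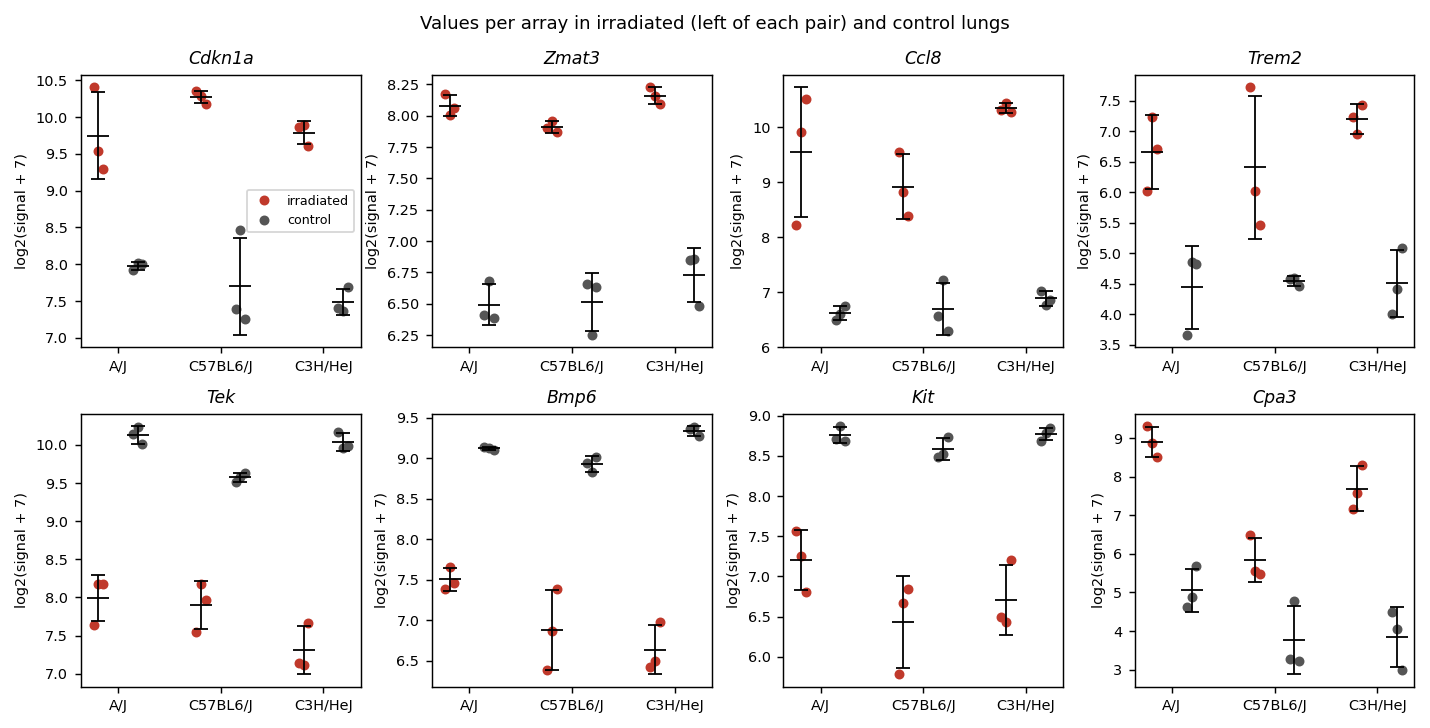
Normalized log2(signal + 7) of 8 shared genes in each array, irradiated left of control for each strain; points are arrays and bars the mean and SD of 3. Irradiated and control arrays do not overlap in any strain for these genes, with Cdkn1a, Zmat3, Ccl8, Trem2 and Cpa3 higher and Tek, Bmp6 and Kit lower in irradiated lungs.

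Leading genes were ranked by the smallest change over the 3 strains. The 15 leading higher genes were Ccl8, Cpa3, Saa3, Gpr176, Orm1, Trem2, Cdkn1a, Mmp12, Fgg, AA467197, Retnla, Cd177, Psrc1, C1qc and Ms4a7. The 15 leading lower genes were Tek, Bmp6, Acoxl, Aplnr, Kit, Plvap, Fmo1, Tnfsf10, Bex2, Glp1r, Clec1a, Efnb2, Pgr, Hpcal4 and Ecm2. In each the irradiated and control arrays did not overlap within any strain, which the selection required and which held for 4.31% (higher) and 2.99% (lower) of the genes tested. Mmp12, AA467197 and Plvap missed the threshold in C57BL6/J by themselves, with limma adjusted p of 0.0565, 0.0782 and 0.0714. Changes of at least 2-fold in all strains, each passing the threshold, were seen in 53 genes (0.427%) that were higher and 26 (0.21%) that were lower.

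**Figure D2:**
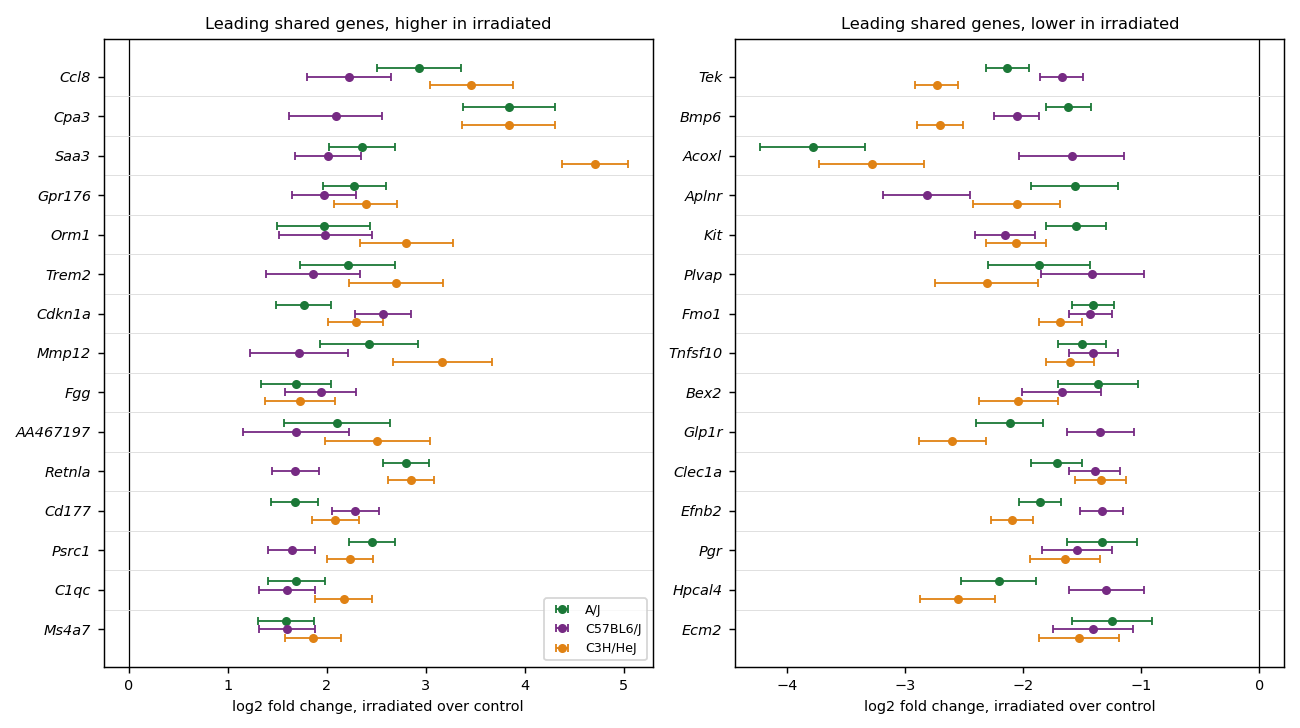
Log2 fold change, irradiated over control, of the 15 leading higher and 15 leading lower shared genes in each strain; bars are standard errors of limma's fit of 6 group means with 3 arrays a group. Every point lies on its gene's side of 0, and the effect in C57BL6/J is the smallest of the 3 for genes such as Cpa3, Retnla, Glp1r and Efnb2, but the largest for Cdkn1a, Aplnr and Kit.

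Most macrophage genes on the list were higher. Of 46 measured genes of alveolar and recruited macrophages, 33 were shared and higher and 2 lower, against 17.2% and 12.3% of all genes. Their median log2 fold change was 0.73, and 11 were called higher in every strain, against 1.64% of all genes. Trem2, a lipid-sensing receptor of macrophages, read 6.02, 7.23 and 6.72 in irradiated A/J lungs, against 3.66, 4.86 and 4.82 in their controls. It read 7.73, 6.03 and 5.47 in irradiated C57BL6/J lungs, against 4.58, 4.60 and 4.46 in their controls, and 7.23, 6.95 and 7.44 in irradiated C3H/HeJ lungs, against 4.01, 4.42 and 5.09 in their controls. No control array reached the lowest irradiated array of any strain, and the blocked log2 fold change was 2.26 ± 0.27.

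Retnla, a secreted marker of alternatively activated macrophages that lung epithelium also makes, was higher by 2.80 ± 0.23, 1.68 ± 0.23 and 2.85 ± 0.23 in A/J, C57BL6/J and C3H/HeJ. Ms4a7, a membrane protein of monocyte-derived macrophages, was higher by 1.59, 1.60 and 1.86, and Gpnmb, a glycoprotein of lipid-laden macrophages, by 2.05, 2.36 and 1.47. Fcgr2b, the inhibitory Fc receptor, chosen after its values were seen, had a blocked log2 fold change of 2.05 ± 0.23. The lower members were Cd36, a fatty acid receptor also made by endothelium, and Siglecf, a lectin of resident alveolar macrophages and eosinophils. Siglecf fell by 0.87 on the blocked log2 scale, but its C57BL6/J arrays showed 6.66, 6.20 and 5.92 after irradiation, against 6.50, 6.10 and 6.22 in controls, which overlap. In bulk lung, more or fewer cells of a type cannot be told apart from more or less RNA per cell, here and for every cell type below. The 4 defining macrophage markers Cd68, Marco, Mrc1 and Csf1r summed to 2738 to 4279 in irradiated and 2002 to 2076 in control A/J lungs, 1964 to 3263 in irradiated and 1727 to 1926 in control C57BL6/J lungs, and 3413 to 4292 in irradiated and 1966 to 2148 in control C3H/HeJ lungs. Their sums did not overlap in any strain. Marco by itself, a scavenger receptor, was not called, with a blocked log2 fold change of 0.17 ± 0.47, and in C57BL6/J it read 5.55, 3.55 and 2.98 after irradiation, against 5.54, 5.78 and 5.07 in controls.

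Complement, the cascade of plasma proteins that tags cells for clearance, was mostly higher. Of 20 measured components and regulators 17 were shared and higher and none shared and lower, against 17.2% and 12.3% of all genes. The median log2 fold change was 0.65, and 6 were called higher in every strain, against 1.64% of all genes. Cd55, which dissociates the convertases and was named after its values were seen, was called lower in A/J by itself (-0.44, adjusted p = 0.0374 in limma's fit of group means). C1qc, a chain of the C1q recognition molecule made by macrophages, read 8.39, 9.26 and 9.64 in irradiated A/J lungs, against 7.43, 7.28 and 7.49 in their controls. It read 9.80, 9.05 and 8.63 in irradiated C57BL6/J lungs, against 7.47, 7.74 and 7.48 in their controls, and 9.38, 9.50 and 9.47 in irradiated C3H/HeJ lungs, against 7.01, 7.23 and 7.59 in their controls. These sets do not overlap, and the blocked log2 fold change was 1.82 ± 0.17. The partner chain C1qb was higher by 1.36, 1.19 and 2.10 in A/J, C57BL6/J and C3H/HeJ, and Cfp, properdin of the alternative pathway, by 1.13, 1.00 and 1.51, though a second Cfp probe set was not called (0.26, adjusted p = 0.113 in limma's blocked fit). C3ar1, the receptor for the fragment C3a, was higher by 1.91 ± 0.23 in the blocked fit, but in C57BL6/J by itself its adjusted p was 0.0674.

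Acute-phase genes, which the liver and inflamed epithelium switch on under cytokines, had 17 of 19 measured members shared and higher and none lower. All genes tested gave 17.2% and 12.3%, and the list's median log2 fold change was 0.90. This list had 10 members called higher in every strain, against 1.64% of all genes. Saa3, a serum amyloid A protein made by macrophages and epithelium, read 7.97, 8.27 and 8.32 in irradiated A/J lungs, against 5.76, 5.56 and 6.16 in their controls. In C57BL6/J it read 9.51, 8.19 and 7.76 after irradiation, against 6.63, 6.85 and 5.93 in controls, and in C3H/HeJ 10.09, 10.36 and 10.46, against 5.65, 5.69 and 5.45. All irradiated arrays were above all controls, but the size differed: 2.36 ± 0.33, 2.01 ± 0.33 and 4.71 ± 0.33, with an adjusted p of 0.00732 in limma's F test of the difference between strains. Orm1, an acid glycoprotein with near-identical family members that the probe set may also read, was higher by 1.97, 1.99 and 2.80. Fgg, the gamma chain of fibrinogen, was higher by 1.69 ± 0.36, 1.94 ± 0.36 and 1.73 ± 0.36, and Lcn2, an iron-scavenging lipocalin that is also on the neutrophil and glucocorticoid lists, by 2.34, 1.49 and 2.82. Serpina3n, a protease inhibitor, was higher by 2.79, 1.27 and 3.07, again with strain effects of unequal size (adjusted p = 0.0145). The liver genes Alb and Apoa1, both below the filter, summed to 7.36 to 21.1 in irradiated and 12.9 to 28.6 in control lungs.

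Chemokines, which call leukocytes into tissue, were led by a monocyte attractant. Of 39 measured chemokines and cytokines 17 were shared and higher and 2 lower, against 17.2% and 12.3% of all genes. Their median was 0.59, and 5 were called higher in every strain, against 1.64% of all genes. Ccl8 read 8.23, 9.92 and 10.51 in irradiated A/J lungs, against 6.50, 6.61 and 6.76 in their controls. It read 9.55, 8.83 and 8.39 in irradiated C57BL6/J lungs, against 6.57, 7.22 and 6.30 in their controls, and 10.32, 10.45 and 10.28 in irradiated C3H/HeJ lungs, against 7.03, 6.77 and 6.87 in their controls. The lowest of the 9 irradiated arrays exceeded the highest of the 9 controls, with a blocked log2 fold change of 2.87 ± 0.26, or 7.32-fold (adjusted p = 8.8e-07). Ccl9, an attractant of myeloid cells, was higher by 1.36, 1.35 and 2.31 in A/J, C57BL6/J and C3H/HeJ, and Ccl12, a mouse monocyte attractant, by 2.05, 1.18 and 2.64. The C57BL6/J arrays of Ccl12 overlapped, at 7.14, 6.46 and 5.73 after irradiation, against 5.77, 5.11 and 4.93 in controls. Cxcl13, which draws B cells into follicles, was higher by 1.59, 1.62 and 1.31. Without the C3H/HeJ arrays 11 of the 33 then measured members were shared and higher, against 1214 of all 12110 genes.

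Neutrophil genes did not move as one. Of 19 measured, 7 were shared and higher and 1 lower, against 17.2% and 12.3% of all genes, with a median log2 fold change of 0.10. Cd177, a surface protein of neutrophils, was higher by 1.68 ± 0.24, 2.29 ± 0.24 and 2.08 ± 0.24 in A/J, C57BL6/J and C3H/HeJ. S100a8, an abundant neutrophil calcium-binding protein, was 10.05, 9.85 and 8.62 in irradiated and 10.09, 10.47 and 10.33 in control A/J lungs, and 10.41, 10.54 and 10.67 in irradiated and 9.94, 9.79 and 9.53 in control C3H/HeJ lungs. Its strain effects had unlike signs and its blocked log2 fold change was -0.03 ± 0.21 (adjusted p = 0.922), with a sign that turned under other scalings. The 3 defining neutrophil markers, Cd177 among them, summed to 738 to 2290 in irradiated and 1914 to 2326 in control A/J lungs, 2550 to 3184 in irradiated and 2421 to 2999 in control C57BL6/J lungs, and 2292 to 2814 in irradiated and 1258 to 1788 in control C3H/HeJ lungs.

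Interferon-responsive genes were called in both directions. Of 43 measured, 17 were shared and higher and 7 lower, with a median of 0.26. All genes tested gave 17.2% and 12.3%, and the lower share is near the latter. Among the higher ones Mx1, a GTPase that blocks viruses, was higher by 0.93, 1.23 and 1.56 in A/J, C57BL6/J and C3H/HeJ, and Ifit1, which binds viral RNA, by 0.80, 1.27 and 1.11. Lgals3bp, a secreted galectin ligand, was higher by 1.21, 1.46 and 0.97. Cxcl9, a chemokine induced by interferon gamma, was higher by 1.69 ± 0.25 in the blocked fit but missed the threshold in A/J (adjusted p = 0.108). Among the 7 lower were Irf1, a transcription factor induced by interferon gamma, and Gbp2, a guanylate-binding GTPase, both named after their values were seen. Irf1 was 8.87, 8.39 and 8.63 in irradiated A/J lungs, against 9.29, 9.28 and 9.25 in their controls, and its irradiated and control arrays did not overlap in any strain. Its blocked log2 fold change was -0.53 ± 0.07 and that of Gbp2 -0.48 ± 0.09. Both lost their calls without scaling, and Gbp2 also with the most variable probe set, which read -0.25 in the blocked fit (limma, adjusted p = 0.16) and 0.15 in C3H/HeJ. No lower member was shared without scaling between arrays, against 151 of all 12587 genes. With centring on the array median 4 were, against 628 of all 12400 genes.

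Mast cell genes were higher, but not equally. Of 15 measured, 10 were shared and higher and 2 lower, against 17.2% and 12.3% of all genes. Median log2 fold changes were 2.04 in A/J, 0.31 in C57BL6/J and 1.56 in C3H/HeJ. Cpa3, the carboxypeptidase of mast cell granules, was the list's leader and the only higher member called in every strain. It read 9.31, 8.88 and 8.51 in irradiated A/J lungs, against 4.62, 4.87 and 5.69 in their controls, and 7.16, 7.59 and 8.31 in irradiated C3H/HeJ lungs, against 4.50, 4.06 and 2.98 in their controls. In C57BL6/J it read 6.50, 5.55 and 5.49, against 3.28, 4.78 and 3.22. These arrays did not overlap within a strain, with log2 fold changes of 3.84 ± 0.47, 2.09 ± 0.47 and 3.84 ± 0.47 in A/J, C57BL6/J and C3H/HeJ. Tpsb2, a tryptase whose probe set may also read its near-identical partner, was higher by 3.48, 1.22 and 4.16, with overlapping C57BL6/J arrays and unequal effects (F test adjusted p = 0.00641). Mcpt4, a chymase, was higher by 3.32, 1.14 and 3.43, with an adjusted p of 0.191 in C57BL6/J.

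Kit, the stem cell factor receptor that mast cells require, moved the opposite way. It was 7.56, 7.25 and 6.81 in irradiated A/J lungs, against 8.71, 8.87 and 8.69 in their controls. It was 5.78, 6.67 and 6.84 in irradiated C57BL6/J lungs, against 8.49, 8.52 and 8.74 in their controls, and 6.49, 6.43 and 7.21 in irradiated C3H/HeJ lungs, against 8.69, 8.78 and 8.85 in their controls. Every irradiated array lay below every control, with a blocked log2 fold change of -1.92 ± 0.15 (adjusted p = 2.53e-07), and a second probe set gave -1.61 ± 0.10. Lung capillary endothelium is also known to express Kit. The 5 defining mast cell markers summed to 1173 to 1876 in irradiated and 81.7 to 169 in control A/J lungs, 82.8 to 225 in irradiated and 25.8 to 66.3 in control C57BL6/J lungs, and 695 to 1217 in irradiated and 50.7 to 67.4 in control C3H/HeJ lungs.

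Most genes of the endothelial list were lower. Of 52 measured genes of lung endothelium 32 were shared and lower and 5 higher, against 12.3% and 17.2% of all genes. The median log2 fold change was -0.50, and 11 were called lower in every strain, against 0.967% of all genes. Relative to the median of all genes the list's median was -0.51 with quantile normalization and -0.48 both without scaling and with median centring. Its counts of shared lower members were 13 without scaling, against 151 of all 12587 genes. With median centring they were 19, against 628 of all 12400 genes.

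Tek encodes Tie2, the angiopoietin receptor that keeps vessels quiescent. Its values were 7.64, 8.17 and 8.17 in irradiated A/J lungs, against 10.14, 10.24 and 10.01 in their controls. They were 7.55, 8.17 and 7.97 in irradiated C57BL6/J lungs, against 9.51, 9.58 and 9.63 in their controls, and 7.14, 7.11 and 7.67 in irradiated C3H/HeJ lungs, against 10.17, 9.96 and 9.99 in their controls. The groups lie far apart, with the highest irradiated array at 8.17 and the lowest control at 9.51. The blocked log2 fold change was -2.18 ± 0.14, 4.54-fold lower (adjusted p = 6.65e-08).

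Aplnr, the apelin receptor, fell by 1.57, 2.82 and 2.06 on the log2 scale in A/J, C57BL6/J and C3H/HeJ. Plvap, which forms the diaphragms of capillary openings, fell by 1.86 in the blocked fit, and Hpgd, the enzyme that breaks down prostaglandins, by 2.26, with C57BL6/J by itself short of the threshold for both (adjusted p = 0.0714 and 0.114). Members named after their values were seen were Ptprb, the phosphatase that acts on Tie2, at -1.50 ± 0.17, Tie1 at -0.57 ± 0.08, Clec14a at -1.18 ± 0.08, and the transcription factors Sox18 and Sox7 at -0.84 ± 0.08 and -0.77 ± 0.10. A second Sox7 probe set was at -0.96, 0.03 and -1.38 in the 3 strains and was not shared. Calcrl and Ramp2, which together form the adrenomedullin receptor, were at -1.34 ± 0.15 and -0.97 ± 0.14. Pecam1, the adhesion molecule of all endothelium, had a blocked log2 fold change of only -0.29 ± 0.10 (adjusted p = 0.0325), with -0.32 in A/J, -0.00088 in C57BL6/J and -0.55 in C3H/HeJ. It turned positive without scaling and kept its direction and call in only 16 of 31 alternatives, not among them median centring, no filter, and leaving out A/J or C3H/HeJ. Cdh5, the cadherin of endothelial junctions, was not called, at -0.09 ± 0.18. It was 10.16, 9.12 and 8.89 in irradiated and 8.59, 9.35 and 9.12 in control A/J lungs, 7.78, 8.36 and 8.50 in irradiated and 8.76, 8.45 and 8.85 in control C57BL6/J lungs, and 8.91, 8.67 and 8.95 in irradiated and 8.87, 9.27 and 8.88 in control C3H/HeJ lungs. The groups overlap in every strain.

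The higher members called in every strain were Ramp3, an accessory protein of the same receptor, Apln, the ligand of Aplnr, and Procr, the protein C receptor. Apln was 8.29, 8.44 and 8.33 in irradiated and 7.59, 7.51 and 7.53 in control A/J lungs, 7.78, 8.22 and 8.03 in irradiated and 7.33, 7.45 and 7.34 in control C57BL6/J lungs, and 9.11, 9.19 and 8.81 in irradiated and 7.93, 7.68 and 7.90 in control C3H/HeJ lungs. It was thus higher in all irradiated arrays of each strain while its receptor was lower, with a blocked log2 fold change of 0.88 ± 0.09. That of Ramp3 was 1.00 ± 0.11 and that of Procr 0.84 ± 0.12. The 3 were named after their values were seen. Without scaling Sox18, Sox7 and Tie1 lost their calls.

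BMP signalling restrains growth of lung vessels and is active in endothelium. Of 19 measured genes 6 were shared and lower and 1 higher, against 12.3% and 17.2% of all genes, and the list's median was -0.06. Without scaling these counts were 2 and 2, against 151 and 4215 of all 12587 genes. Bmp6, a ligand that also reports iron stores, was 7.39, 7.66 and 7.46 in irradiated A/J lungs, against 9.14, 9.13 and 9.10 in their controls. It was 6.39, 6.86 and 7.38 in irradiated C57BL6/J lungs, against 8.94, 8.83 and 9.02 in their controls, and 6.42, 6.50 and 6.98 in irradiated C3H/HeJ lungs, against 9.36, 9.38 and 9.27 in their controls. Every irradiated array was below every control, at a blocked log2 fold change of -2.13 ± 0.15, 4.37-fold lower. Tmem100, a target of BMP in endothelium, was at -1.91 ± 0.22 and Smad6, an inhibitor within the pathway, at -0.86 ± 0.09, and Smad6 lost its call without scaling. Hhip, a hedgehog-binding protein, was the member that rose, by 1.16, 0.78 and 1.18. Acvrl1, the endothelial type I receptor for BMP9 that was on the TGF-beta list and was chosen after its values were seen, was at -1.65 ± 0.20.

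TGF-beta, the growth factor most tied to fibrosis, was not among the shared genes. Tgfb1 had a blocked log2 fold change of 0.17 ± 0.17 (adjusted p = 0.467), with -0.31, 0.32 and 0.50 in A/J, C57BL6/J and C3H/HeJ, and it passed the threshold without scaling, without the A/J arrays and without the first irradiated A/J array. Of 24 genes of TGF-beta and activin signalling 8 were shared and higher and 4 lower, against 17.2% and 12.3% of all genes. Inhba, the activin A subunit, chosen after its values were seen, was higher by 1.88 ± 0.24.

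Many matrix genes were higher, with the smallest changes in C57BL6/J for most named members. Of 25 genes of fibrillar collagens and their crosslinking 14 were shared and higher and 2 lower, against 17.2% and 12.3% of all genes. The list's medians were 0.74 in A/J, 0.15 in C57BL6/J and 0.49 in C3H/HeJ. Lox, the lysyl oxidase that crosslinks collagen and elastin, was 9.60, 9.53 and 9.15 in irradiated A/J lungs, against 7.42, 7.47 and 7.65 in their controls. It was 9.85, 8.87 and 8.40 in irradiated C57BL6/J lungs, against 6.96, 7.97 and 7.33 in their controls, and 9.76, 9.99 and 9.55 in irradiated C3H/HeJ lungs, against 8.38, 8.31 and 8.06 in their controls. Within each strain the sets did not overlap, with effects of 1.91 ± 0.29, 1.62 ± 0.29 and 1.52 ± 0.29 in A/J, C57BL6/J and C3H/HeJ (F test of a difference between strains, adjusted p = 0.767).

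Col3a1, the collagen of distensible tissue, was higher by 1.16, 0.66 and 1.29, and Col5a2, which sets fibril width, by 2.26, 0.96 and 2.13. The C57BL6/J arrays of Col3a1 overlapped, at 11.36, 10.96 and 10.32 in irradiated and 10.22, 10.09 and 10.35 in control lungs. Col1a1, the main fibrillar collagen, was shared (1.50 ± 0.21) but unequal: 9.40, 9.36 and 9.24 in irradiated and 7.35, 7.08 and 6.89 in control A/J lungs, 9.31, 9.52 and 9.21 in irradiated and 7.57, 7.75 and 7.43 in control C3H/HeJ lungs, but 8.62, 8.11 and 7.35 in irradiated and 7.45, 7.40 and 7.72 in control C57BL6/J lungs. The C57BL6/J arrays overlap, its adjusted p there was 0.227, and the F test of the strain difference gave 0.0138. Col8a1, a short-chain collagen of vessel walls, was higher by 0.72 ± 0.13 in the blocked fit.

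Of 20 basement membrane genes 11 were shared and higher and none lower, against 17.2% and 12.3% of all genes. Without the A/J arrays 6 were shared and higher, against 1414 of all 12089 genes. Col4a1 and Col4a2, the paired chains of the basement membrane network, were higher by 0.93 ± 0.09 and 0.97 ± 0.11. Both were called in every strain. Col18a1, the source of endostatin, was 8.92, 8.96 and 9.03 in irradiated and 6.68, 6.70 and 6.81 in control A/J lungs, but 6.62, 7.25 and 6.96 in irradiated and 6.19, 6.51 and 6.59 in control C57BL6/J lungs. Its irradiated arrays were above the controls in each strain, by unequal amounts (F test adjusted p = 0.00423). Nid2, a nidogen that links the network to laminin, was higher by 0.88 ± 0.13.

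Of 32 matricellular and elastic fibre genes 15 were shared and higher and 3 lower, against 17.2% and 12.3% of all genes. Fn1, fibronectin, was higher by 1.19 ± 0.15, 0.78 ± 0.15 and 1.38 ± 0.15 in A/J, C57BL6/J and C3H/HeJ, and Ltbp2, a fibrillin-binding protein, by 1.39, 0.98 and 0.75. Tnc, the injury matrix protein tenascin C, was higher by 2.52, 1.23 and 2.78, with C57BL6/J by itself at an adjusted p of 0.0612. Eln, elastin, was shared at 1.15 ± 0.29, though a second probe set was not (0.60, adjusted p = 0.155 in limma's blocked fit), and its C57BL6/J arrays overlapped (9.91, 6.93 and 7.65 after irradiation, against 7.48, 7.58 and 7.03 in controls), and it missed the threshold without the A/J or without the C3H/HeJ arrays.

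Proteases that cut matrix and their inhibitors had 22 of 29 measured members shared and higher and 1 lower, with a median of 0.71. The shares of all genes were 17.2% and 12.3%. Mmp12, the macrophage elastase, was higher by 2.43, 1.72 and 3.17, and Ctsk, a collagen-cutting cathepsin, by 2.36, 1.36 and 1.98. Adam8, a leukocyte sheddase, was called in every strain, at 1.49, 1.20 and 1.55. Timp1, the inhibitor of metalloproteases, was 8.90, 8.59 and 8.03 in irradiated and 5.66, 5.19 and 5.89 in control A/J lungs, and 9.95, 10.66 and 10.24 in irradiated and 6.10, 6.05 and 6.09 in control C3H/HeJ lungs. In C57BL6/J it was 8.10, 7.05 and 6.28, against 6.25, 6.45 and 5.79, so that the arrays overlapped, and its 3 effects of 2.93 ± 0.35, 0.98 ± 0.35 and 4.20 ± 0.35 differed (F test adjusted p = 0.00536). Igf1, the growth factor made by macrophages and fibroblasts, was chosen after its values were seen and was called in every strain, at 1.93, 1.09 and 2.39.

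**Figure D3:**
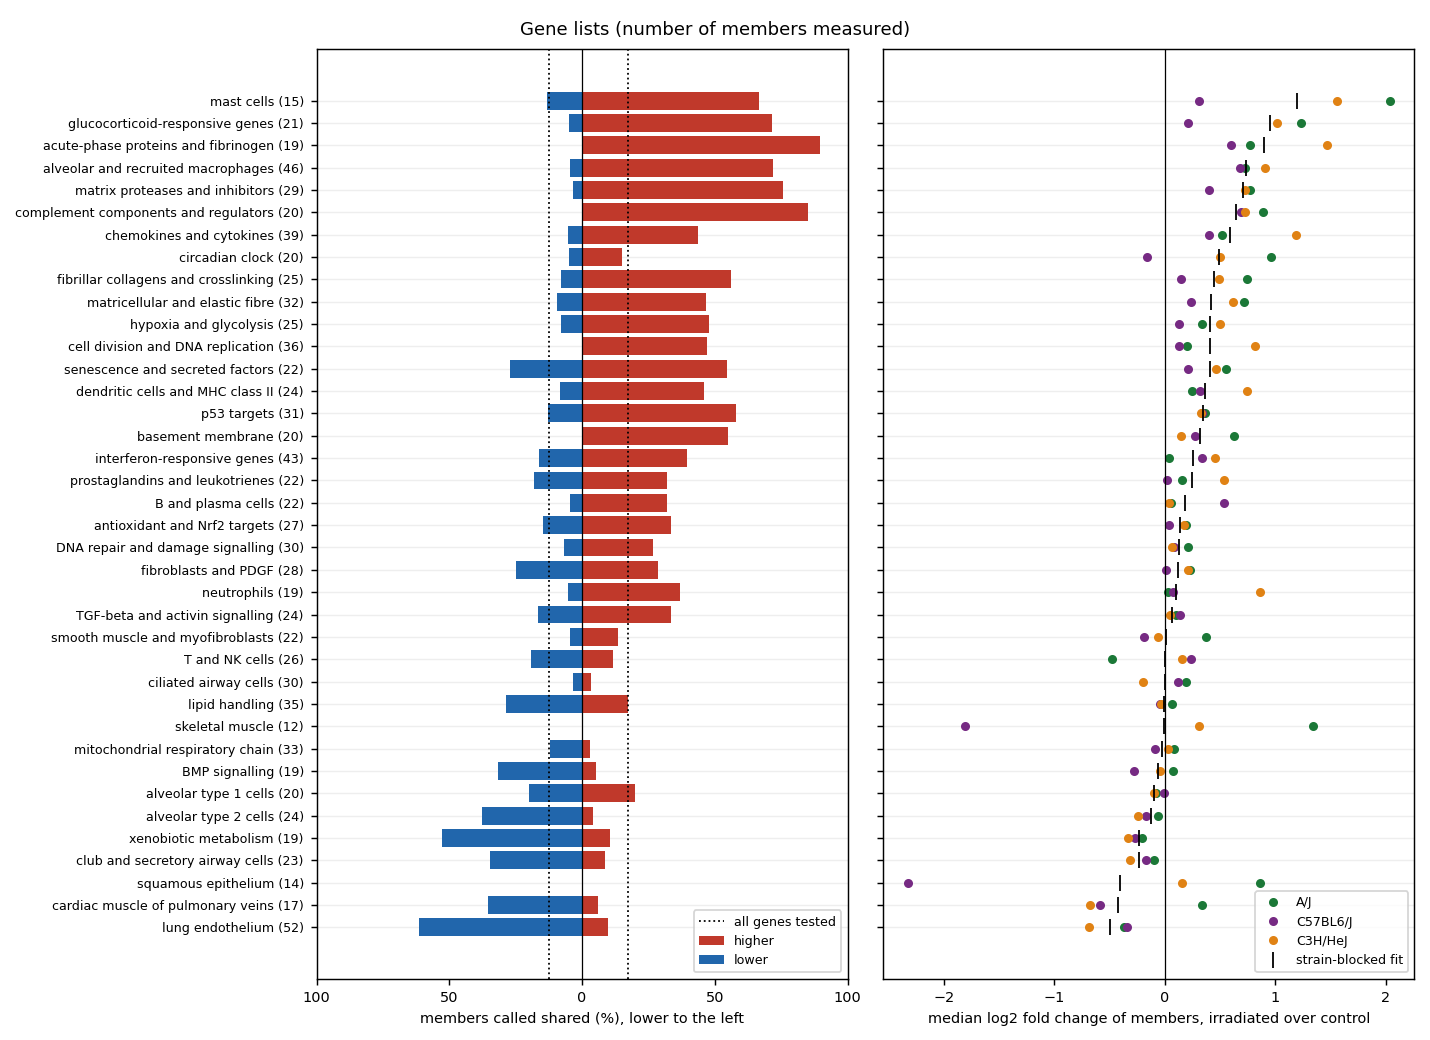
Left, percent of measured members of each gene list called shared and higher (right of 0) or lower (left of 0), with dotted lines at 17.2% and 12.3% for all genes tested; right, the members' median log2 fold change in each strain and in the strain-blocked fit. Acute-phase, complement, protease and macrophage lists extend furthest to the right and lung endothelium furthest to the left, while the mast cell, glucocorticoid and muscle lists have strain medians that lie far apart.

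Glucocorticoid-responsive genes, which stress hormone raises in many tissues, had 15 of 21 measured members shared and higher and 1 lower. The shares of all genes were 17.2% and 12.3%. The list's medians were 1.23 in A/J, 0.21 in C57BL6/J and 1.02 in C3H/HeJ. Fkbp5, a co-chaperone of the glucocorticoid receptor, was 8.19, 8.11 and 7.78 in irradiated and 5.33, 5.89 and 5.77 in control A/J lungs, and 7.98, 8.40 and 8.07 in irradiated and 5.93, 6.21 and 6.29 in control C3H/HeJ lungs. In C57BL6/J it was 8.60, 7.92 and 8.59, against 6.95, 7.62 and 6.99. The irradiated arrays were higher throughout, by 2.36 ± 0.22, 1.18 ± 0.22 and 2.01 ± 0.22 in A/J, C57BL6/J and C3H/HeJ. The metallothioneins Mt2 and Mt1, which bind zinc, were called in every strain with unequal effects (F test adjusted p = 0.0408 and 0.0113), and a second Mt1 probe set was at -0.09 in C57BL6/J.

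Of 20 measured clock genes 3 were shared and higher and 1 lower, against 17.2% and 12.3% of all genes. By itself A/J called 13 of them higher and 4 lower, C57BL6/J 2 and 2, and C3H/HeJ 8 and 3. Over all genes these shares were 15.1% and 8.91% in A/J, 3.01% and 2.36% in C57BL6/J, and 12.9% and 10.6% in C3H/HeJ. Dbp, a transcription factor that swings strongly over the day, was 8.83, 9.04 and 9.11 in irradiated and 5.68, 5.45 and 5.25 in control A/J lungs, but 8.11, 8.92 and 8.76 in irradiated and 9.76, 9.62 and 9.90 in control C57BL6/J lungs. The effects of 3.54, -1.16 and 0.54 in A/J, C57BL6/J and C3H/HeJ had unlike signs (F test adjusted p = 7.93e-07). Per1, a repressor of the clock and a glucocorticoid target, passed the blocked fit (1.27 ± 0.28, adjusted p = 0.00218) with effects of 2.62, -0.09 and 1.29, and was for that reason not shared. The time of day of collection was not given in the sources used here, and its part in these values was not tested.

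Enzymes of xenobiotic metabolism were mostly lower: of 19 measured 10 were shared and lower and 2 higher, against 12.3% and 17.2% of all genes. Their median was -0.24. Without scaling the shared lower members were 4, against 151 of all 12587 genes. Fmo1, a flavin monooxygenase, was 10, 9.25 and 9.18 in irradiated A/J lungs, against 10.89, 10.90 and 10.87 in their controls. It was 8.82, 9.01 and 9.36 in irradiated C57BL6/J lungs, against 10.49, 10.36 and 10.64 in their controls, and 9.25, 9.28 and 9.01 in irradiated C3H/HeJ lungs, against 10.89, 10.80 and 10.91 in their controls. All irradiated arrays were lower, at a blocked log2 fold change of -1.51 ± 0.10. Ahr, the receptor that senses aryl hydrocarbons, was called lower in every strain (-1.11, -0.59 and -1.20), but a second Ahr probe set was at -1.20, 0.08 and -0.96 and was not shared. Also called lower in every strain was Ces1f, a carboxylesterase with close relatives that its probe set may also read (-0.95 ± 0.14 in the blocked fit). Cyp1a1, a target of that receptor, was shared at -1.50 ± 0.25 but missed the threshold in A/J (adjusted p = 0.0948).

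Genes of the lung's epithelium were on 4 lists. Of 24 alveolar type 2 genes 9 were shared and lower and 1 higher, of 23 club and secretory genes 8 and 2, of 20 alveolar type 1 genes 4 and 4, and of 30 ciliated cell genes 1 and 1, against 12.3% lower and 17.2% higher of all genes. Acoxl, an acyl-CoA oxidase-like gene on the alveolar type 2 list, was 5.21, 3.81 and 4.08 in irradiated A/J lungs, against 8.25, 8.17 and 8.03 in their controls. It was 5.02, 7.24 and 7.22 in irradiated C57BL6/J lungs, against 8.19, 7.96 and 8.11 in their controls, and 4.91, 4.98 and 4.63 in irradiated C3H/HeJ lungs, against 7.96, 8.13 and 8.28 in their controls. One C57BL6/J array fell as far as those of the other strains and the other 2 stayed nearer their controls, without overlap, and the blocked log2 fold change was -2.89 ± 0.33.

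Among leading lower genes of other functions, Tnfsf10, the death ligand TRAIL, fell by 1.50, 1.41 and 1.61 on the log2 scale in A/J, C57BL6/J and C3H/HeJ, and Efnb2, the ephrin ligand of arterial endothelium, by 1.86, 1.34 and 2.10. Clec1a, a C-type lectin of endothelium, fell by 1.72, 1.40 and 1.34. Glp1r, the receptor for the incretin GLP-1, fell by 2.12, 1.35 and 2.60, and Pgr, the progesterone receptor, by 1.33, 1.55 and 1.64. Bex2, Hpcal4 and Ecm2, which encode a brain-expressed adaptor, a calcium sensor and a matrix protein, fell by 1.70, 2.02 and 1.40 in the blocked fit. Of the leading higher genes, Gpr176, an orphan receptor, was higher by 2.28, 1.98 and 2.39, and AA467197 by 2.10, 1.69 and 2.51.

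Genes of cell division had 17 of 36 measured members shared and higher and none lower, against 17.2% and 12.3% of all genes. But the change was mainly seen in C3H/HeJ, with medians of 0.20, 0.13 and 0.82 in A/J, C57BL6/J and C3H/HeJ. Without the C3H/HeJ arrays 1 of 27 was shared, and without the 3 arrays high in keratins 10 of 35. Ccnd1, cyclin D1, was called in every strain, at 1.02, 0.78 and 1.56, but of its 2 other probe sets 1 was at -0.09, 0.73 and 1.43 and was not shared. Mki67, the proliferation antigen, was 6.40, 6.91 and 6.79 in irradiated and 6.65, 6.40 and 6.36 in control A/J lungs, 6.17, 7.09 and 6.61 in irradiated and 5.73, 6.57 and 5.98 in control C57BL6/J lungs, and 7.38, 7.63 and 7.58 in irradiated and 5.81, 6.48 and 5.90 in control C3H/HeJ lungs. Only the C3H/HeJ arrays of Mki67 did not overlap, and its blocked change of 0.74 ± 0.18 missed the threshold without that strain. Gins2 and Ccne1, needed for replication and its start, were at 1.06 ± 0.21 and 0.96 ± 0.21, and Ccnb2, cyclin B2, at 0.77 ± 0.15.

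Genes of skeletal muscle (12 measured) and squamous epithelium (14 measured) held no shared member, against 29.4% of all genes. Krt4 was at 10.91 in 1 irradiated A/J array and at 11.52 and 11.75 in 2 control C57BL6/J arrays, and between 3.06 and 6.13 in the other 15. Xist, the RNA that silences an X chromosome, was dim in all arrays (4.57 to 5.52 in irradiated and 4.61 to 6.03 in control lungs), with a blocked log2 fold change of -0.44 ± 0.14.

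Shared did not mean equal. Of the 3648 shared genes, 250 also passed limma's F test of a difference between strains, which 5.51% of all genes tested passed, and so did 31 of the 323 genes called in every strain. By themselves the strains called unequal numbers: 1874 genes higher (15.1%) and 1105 lower (8.91%) in A/J, 373 (3.01%) and 293 (2.36%) in C57BL6/J, and 1597 (12.9%) and 1319 (10.6%) in C3H/HeJ. Of the shared genes 323 were called in all 3 strains, 1051 in 2, 1485 in 1, and 789 in none by itself. C57BL6/J set the limit for most, since 540 shared genes were called there, against 1915 in A/J and 2101 in C3H/HeJ. Of the 373 genes higher in C57BL6/J 54.4% were also higher in both other strains, which is 10.8% of those higher in A/J and 12.7% of those higher in C3H/HeJ. Of the 293 lower in C57BL6/J 41.0% were also lower in both others, which is 10.9% and 9.10% of those lower in A/J and C3H/HeJ. The 203 higher genes called in every strain had median log2 fold changes of 1.02, 0.80 and 1.08 in A/J, C57BL6/J and C3H/HeJ, and the 120 lower ones -0.86, -0.77 and -1.10, which describes genes chosen by these values.

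Among the shared genes with the smallest p in the F test were Rgcc, a regulator of the cell cycle, at 1.96, 0.35 and 1.47 in A/J, C57BL6/J and C3H/HeJ, Sorbs2, a cytoskeletal adaptor, at 1.69, 0.38 and 1.55, and Cipc, a partner of the clock, at 1.13, 0.04 and 0.11. Another Sorbs2 probe set was at -0.14 and another Cipc probe set at -0.03 in C57BL6/J, and neither was shared. Cd36 was at -1.49, -0.29 and -1.08, and Cpm, a membrane carboxypeptidase of alveolar epithelium, at -1.47, -0.25 and -1.58. Sfpq, a splicing factor, was at -2.62, -0.03 and -0.86, but 2 of its 5 other probe sets had blocked log2 fold changes of 0.18 and 0.28. A further 322 genes passed the blocked fit with strain effects of unlike sign and are not shared. Vwa1, Hal, Ogn, Olfml2b, Pcmtd1 and Per1 led these by their p, and in each the C57BL6/J effect lay between -0.09 and 0.04 while the other strains moved. Hal in C57BL6/J read 2.97, 3.33 and 2.90 after irradiation, against 3.15, 3.31 and 3.00 in controls. These values lie near the floor of the scale, where a fall could not show. The signs of the 3 strain effects were the same for 47.2% of all genes tested. Of the 137 genes called in every strain that had another usable probe set, 129 kept the sign in all of them, 113 had at least 1 called shared in the same direction, and none had one called the opposite way.

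**Figure D4:**
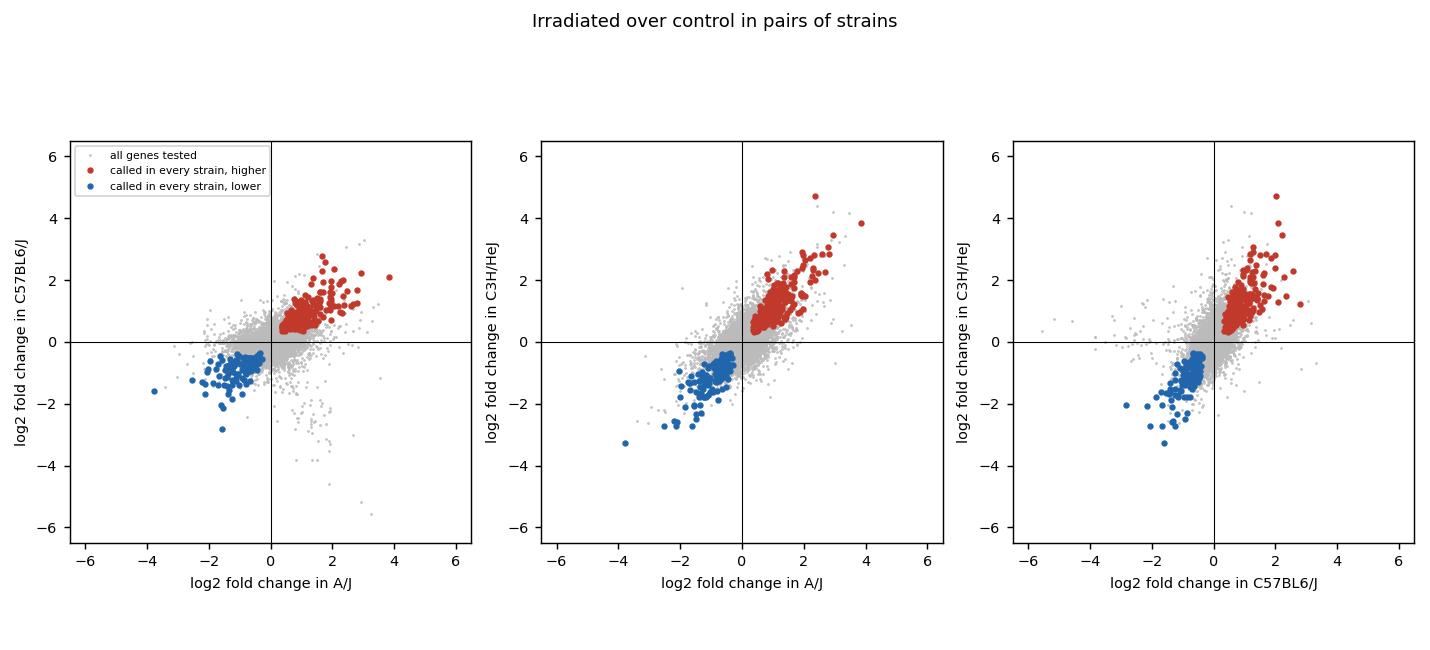
Log2 fold change, irradiated over control, of all 12405 genes (grey) in pairs of strains, with the 203 higher (red) and 120 lower (blue) genes called in every strain. Pearson's r across genes, which are not independent replicates, was 0.301 for A/J and C57BL6/J, 0.643 for A/J and C3H/HeJ and 0.489 for C57BL6/J and C3H/HeJ; the grey tail at the lower right for A/J and C57BL6/J includes Krt4.

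The strict count depended on the C57BL6/J arrays more than the shared count did. Without the 3 arrays high in keratins, which leaves 1 C57BL6/J control, 15 genes were called in every strain, while 1786 higher and 1255 lower genes were shared and all 323 of the strict genes remained shared. Without the first irradiated C57BL6/J array 128 genes were called in every strain, without the first or the third control of that strain 141 or 154, and without the third irradiated C3H/HeJ array 294. Without the A/J arrays, whose irradiated RNA had low 5′ to 3′ ratios, 395 genes were called in both other strains and all 323 remained shared. The 323 were chosen by passing the threshold in those strains too, so their staying shared was largely set by the selection. Among the 3582 shared genes still measured without A/J, 2219 remained shared. With no scaling between arrays the median of all genes shifted by 0.40 and 96.5% of shared calls were higher, with median centring it shifted by 0.18 and 84.9% were higher, against 58.3% with quantile normalization. Of the 323 genes, 268 and 316 remained shared with these scalings.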

How the data were processed

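Lung RNA from irradiated and control mice was measured on 9 Affymetrix arrays each, with 45101 probe sets an array. The authors deposited linear signal intensities per probe set, made with MAS5 per the submitters' processing notes. MAS5 leaves weak probe sets noisy, so dim genes carry larger errors. The deposited signals were not at a common level, with trimmed means of 46.3 in C3H/HeJ control 1 to 176 in A/J irradiated 1. Here the intensities were taken as log2(signal + 7), 7 being the rounded 25th percentile, and quantile-normalized. The 64 control probe sets were left out. The filter kept 25726 probe sets that exceeded the median of all values on 3 or more of the 18 arrays, and the brightest stood for each gene. Of all probe sets 34958 had 1 gene in the platform annotation, 932 had several and 9160 had no row; those without 1 gene were not named.

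limma 3.58.1 in R 4.3.3 fitted strain plus treatment (14 residual degrees of freedom) for the blocked effect, and 6 group means (12) for effects in each strain and the F test of their difference, with Benjamini-Hochberg adjustment over all 12405 genes. All fold changes are irradiated over control on the log2(signal + 7) scale, which understates changes of dim genes. An exact test of 3 arrays against 3 cannot go below p = 0.1. The procedure was tested on simulated data.

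Text names the 15 leading genes in each direction (shared, arrays not overlapping in any strain, ranked by their smallest change), up to 4 shared members of 16 of the 38 lists, 6 shared genes with the smallest F test p, 6 with unlike signs, and a fixed set of well-known genes. Others are said to be chosen after their values were seen. The members, lists and named genes were all chosen with earlier results of these data known. Alternatives were another scaling, pseudocount, filter, probe set or spread estimate, a replicate block, and leaving out arrays or strains. Equal replicate numbers did not pair samples: the correlation of their deviations ran between -0.0838 and 0.0953. No files of other samples were used.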

Additional observations from a re-analysis of the deposited data

Results flagged for a closer look

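Among the named genes, 26 had log2 fold changes that differed between strains by limma's F test (adjusted over 12405 genes). Effects are given in the order A/J, C57BL6/J, C3H/HeJ. Of the inflammatory and matrix genes, Saa3 had an adjusted p of 0.00732, Serpina3n had an adjusted p of 0.0145 and Timp1 had an adjusted p of 0.00536. Tpsb2 had an adjusted p of 0.00641, Col1a1 had effects of 2.23, 0.50 and 1.76 with an adjusted p of 0.0138 and Col4a2 had effects of 1.30, 0.54 and 1.06 with an adjusted p of 0.0499. Col18a1 had effects of 2.24, 0.51 and 1.79 with an adjusted p of 0.00423. Of the metallothioneins and clock genes, Mt2 had effects of 2.60, 1.17 and 2.85 with an adjusted p of 0.0408, Mt1 had effects of 2.30, 0.94 and 2.34 with an adjusted p of 0.0113 and Per1 had an adjusted p of 2.85e-05. Dbp had an adjusted p of 7.93e-07 and Cipc had an adjusted p of 0.000519. Of the endothelial genes, Ptprb had effects of -1.33, -0.86 and -2.30 with an adjusted p of 0.00402, Calcrl had effects of -1.96, -0.63 and -1.42 with an adjusted p of 0.00383 and Hey1 had effects of -0.79, -1.37 and -1.87 with an adjusted p of 0.0394. Sema3g had effects of -1.48, -0.92 and -2.50 with an adjusted p of 0.00884 and Cd36 had an adjusted p of 0.00156. Of the other genes, Rgcc had an adjusted p of 0.000916, Sorbs2 had an adjusted p of 0.000991 and Sfpq had an adjusted p of 0.000991. Cpm had an adjusted p of 0.00181, Vwa1 had effects of 1.38, -0.04 and 1.82 with an adjusted p of 0.00181 and Ogn had effects of -1.06, 0.04 and -1.02 with an adjusted p of 0.00257. Hal had effects of 1.26, -0.09 and 2.11 with an adjusted p of 0.000519, Olfml2b had effects of 1.21, -0.02 and 0.93 with an adjusted p of 0.0127 and Pcmtd1 had effects of -1.32, 0.0029 and -0.88 with an adjusted p of 0.0116. The C57BL6/J arrays of Hal lay near the floor of the scale. Ptprb, Calcrl, Hey1 and Sema3g were chosen after their values were seen, and the smallest effect was in C57BL6/J for Ptprb, Calcrl and Sema3g and in A/J for Hey1.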

How the results depend on the processing

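Precision is limited by 3 arrays a group, and dim genes are near background. The blocked fit called 3970 genes, and 3540 to 3999 with 1 array left out, but 1991 without the C3H/HeJ arrays. Shared genes, 2128 higher and 1520 lower, were 4215 and 151 without scaling, 3518 and 628 with median centring, and 1214 and 774 without C3H/HeJ, and 1414 were higher without A/J. With 1 array left out they ranged between 1914 and 2140 higher and between 1323 and 1603 lower. Genes called in every strain, 323 (203 higher, 120 lower), were 107 (90 and 17) without scaling, 203 (44 lower) with median centring, 193 (123 and 70) with no filter, 1357 (850 and 507) without C57BL6/J and 15 (9 and 6) without the 3 arrays high in keratins. With 1 array left out they were 128 to 416 (77 to 259 higher, 51 to 157 lower), the lowest without the first irradiated C57BL6/J array and the highest without the first irradiated A/J array. With the replicate block, whose numbers do not pair the samples, 175 genes (114 and 61) were called in every strain, 166 of them among the 323. The F test called 684 genes, against 334 without scaling, 373 with no filter, 1027 with the most variable probe set, 212 with the replicate block, 120 without the 3 arrays, 157, 116 and 442 without A/J, C57BL6/J and C3H/HeJ, and 331 to 781 with 1 array left out. Fewer arrays or genes enter the fits that leave some out; for the other settings the cause was not tested.

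Of the named genes, the blocked effect of Pecam1 turned to 0.18 without scaling. That of S100a8 turned to 0.42 without scaling, 0.20 with median centring, 0.19 without the 3 arrays, 0.34 without A/J, 0.0023 without C57BL6/J, and 0.043, 0.024 and 0.15 without A/J control 2, A/J control 3 or irradiated A/J array 3, within a range of -0.12 to 0.15 with 1 array left out. That of Dbp turned to -0.32 without A/J, and that of Krt4 to 0.51 without the 3 arrays, 1.82 without C57BL6/J and 0.030 and 0.059 without C57BL6/J control 1 or 3, within a range of -1.43 to 0.059 with 1 array left out. Over all named genes and alternatives 3851 values kept their direction and side of the threshold, 46 lost the threshold, 6 gained it and 14 turned.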

Other observations

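Among genes chosen after their values were seen, 4 that are known from arteries were lower in irradiated lungs of every strain. Dll4, a Notch ligand of arterial tip cells, had a blocked log2 fold change of -1.32 ± 0.12, Hey1, a Notch target, -1.34 ± 0.14, Gja4, a connexin of arterial endothelium, -1.15 ± 0.13, and Sema3g, a semaphorin of arteries, -1.63 ± 0.19. In each the irradiated and control arrays did not overlap within any strain, and each was called in every strain by itself. Of all genes 2.99% were lower without such overlap, and 0.967% were called lower in every strain. The 4 were picked with these values known, so both traits describe the choice. Arterial genes had no list of their own, and those that did not fall were not counted.

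Among genes of the heart muscle that sheathes pulmonary veins, 6 of 17 were shared and lower and 1 higher, against 12.3% and 17.2% of all genes. Without scaling none were lower and 2 higher, against 151 and 4215 of all 12587 genes. Nppb encodes the natriuretic peptide BNP that stretched heart muscle releases. It was the list's shared higher gene, at 1.96, 1.39 and 2.50 in A/J, C57BL6/J and C3H/HeJ. Ankrd1, a stress-responsive ankyrin repeat protein of heart muscle, was at -0.85, -0.71 and -0.63 and lost its call without scaling. The heart muscle markers Myh6, Myl7, Tnni3 and Nppa, all above the filter, summed to 2123 to 2383 in irradiated and 1083 to 2544 in control A/J lungs, 905 to 2071 in irradiated and 1792 to 3254 in control C57BL6/J lungs, and 1091 to 1511 in irradiated and 2279 to 2800 in control C3H/HeJ lungs. Their part in these values was not tested.

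Of 26 genes of T and NK cells 3 were shared and higher and 5 lower, against 17.2% and 12.3% of all genes. Il7r, the receptor of interleukin 7, was at 1.19, 1.16 and 0.90 in the 3 strains, and Gzma, a granzyme of cytotoxic cells, at -2.13, -1.19 and -1.44, both chosen after their values were seen. The 3 plasma cell markers summed to 9882 to 13798 in irradiated and 4138 to 5384 in control A/J lungs, 7152 to 8763 in irradiated and 1202 to 2437 in control C57BL6/J lungs, and 3764 to 7726 in irradiated and 3397 to 5004 in control C3H/HeJ lungs, so that they overlapped in C3H/HeJ.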
